A study of Mus musculus with 20 samples.

Results

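The polysomal and total cytoplasmic RNA of control mouse brain at postnatal day 7 were compared, in 6 of the 20 libraries of the series. The comparison held 3 libraries of polysomal RNA and 3 of total RNA, which carry the replicate numbers 1 to 3 in both fractions and were treated as 3 mice. Of the 45700 genes in the deposited table, 14900 averaged 1 FPKM or more over the 6 libraries. FPKM is a count of sequenced fragments scaled to the length of the transcript and to the size of the library. The 14422 of these genes that were above 0 in all 6 libraries were tested. The control animals were heterozygous littermates (Smn-/+; SMN2tg/0, congenic FVB background) of the severely affected "Taiwanese" spinal muscular atrophy (SMA) mice (Smn-/-; SMN2tg/0), so they carry the human SMN2 transgene as well. Day 7 is the late-symptomatic stage of the SMA littermates. Control brains of day 5, with 2 mice, served as a second set. Brains were snap-frozen, cytoplasmic lysates were run on a sucrose gradient, and RNA was taken from all fractions pooled (total) or from the polysomal fractions pooled (polysomal). The total RNA therefore contains the polysomal RNA too.

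A messenger RNA that carries several ribosomes sediments deep in a sucrose gradient, while untranslated mRNAs stay in light fractions as free ribonucleoprotein particles. The share of a transcript found in polysomes is widely used as a measure of how much it is engaged in translation. Noncoding RNAs of the nucleus or of small particles are not expected there, and some mRNAs, such as those of ribosomal proteins and ferritins, are known to be held out of polysomes by elements at their 5′ ends. FPKM is scaled within each library, so a difference below is relative to the other RNAs of that library and gives no absolute share of a transcript in polysomes.

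Most genes were close to even between the fractions. The median log2 difference of log2(FPKM + 0.1), polysomal minus total, was 0.06 over all 14422 genes, and it was 0.07, 0.04 and 0.03 in the 3 mice. For 92.4% of genes it lay within 0.5 of 0. With limma and Benjamini-Hochberg adjustment, 640 genes (4.44%) were higher in polysomal RNA and 972 (6.74%) were lower. The lower side was steeper: 282 of the lower genes differed by at least 1 on the log2 scale, against 5 of the higher genes, and the median differences were -0.70 and 0.34. Total RNA contains the polysomal RNA, so the possible rise of a transcript over total RNA is bounded, while its fall is not. The part of this bound in the steeper lower side was not tested. The share of protein-coding genes was 90.5% among all tested, 98.0% among those higher and 69.8% among those lower. Libraries of the same fraction correlated across genes with Pearson's r between 0.984 and 0.988, and polysomal with total libraries between 0.965 and 0.976. When only genes averaging 5 FPKM or more were fitted, the balance turned, with 874 higher and 786 lower. The counts depend on all 3 mice: without 1 of them, 21 to 104 genes were higher and 346 to 587 lower.

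**Figure D1:**
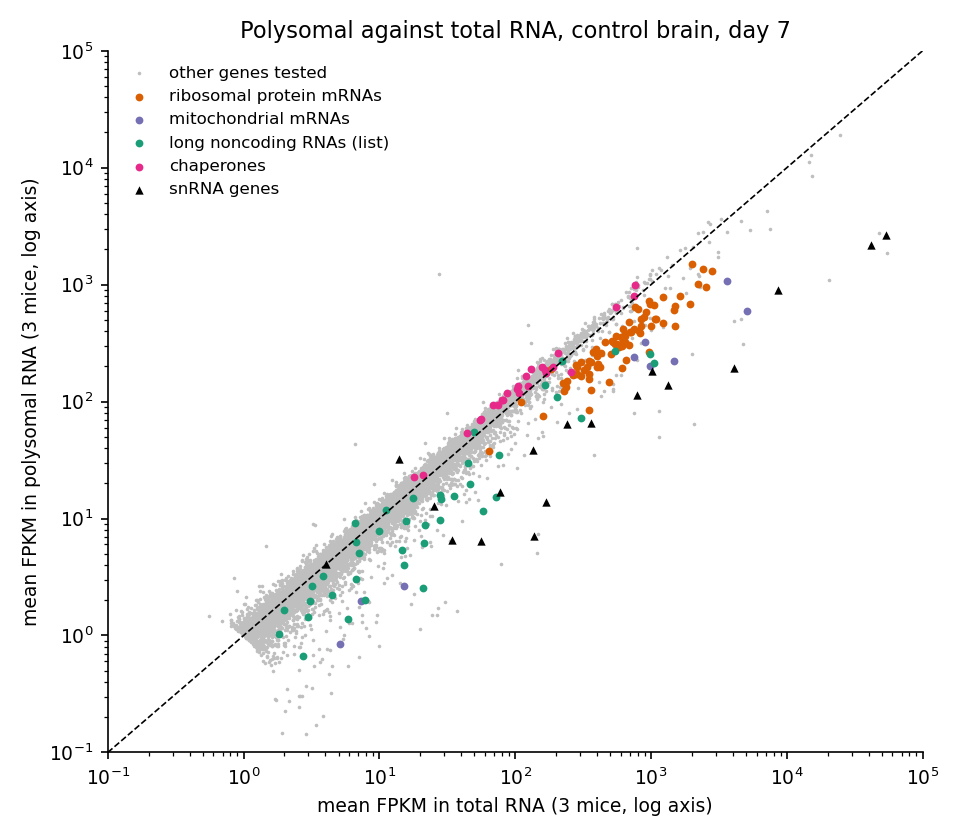
Mean FPKM of each tested gene in polysomal RNA (vertical, log axis) against total RNA (horizontal, log axis), each over 3 control mice of day 7, with the line of equality dashed. The 9 mitochondrial mRNAs and most ribosomal protein mRNAs, snRNA genes and listed long noncoding RNAs lie below the line, while most chaperone mRNAs lie just above it.

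Several noncoding classes were low in polysomal RNA, while the miRNA median depended on which genes were kept. The 18 snRNA genes tested, which encode the RNA parts of the spliceosome and related particles, had a median log2 difference of -2.64, and 15 of them were lower and 0 higher, beside 6.74% and 4.44% of all genes. In the single mice the median was -2.64, -2.79 and -2.55. The 78 snoRNA genes, guides of RNA modification in the nucleolus, had a median of -0.53 with 28 lower and 0 higher. The 12 scaRNA genes, their counterparts in Cajal bodies, had a median of -0.69 with 5 lower. The 26 genes of the type misc_RNA, a mixed class of small RNAs, had a median of -0.76 with 8 lower and 1 higher. Among the 304 lincRNA genes, 86 were lower (28.3%) and 1 was higher, and their median was -0.27. The 20 miRNA genes had a median of 0.24, with 2 higher and 1 lower, and mouse medians of 0.18, -0.13 and 0.30. With genes listed at 0 in some libraries kept, the median of 110 miRNA genes was -0.14. Antisense genes stood closer to the coding genes, with a median of -0.08 and 34 of 338 lower, against 0.07 in 13046 protein-coding genes, of which 678 were lower and 627 higher.

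**Figure D2:**
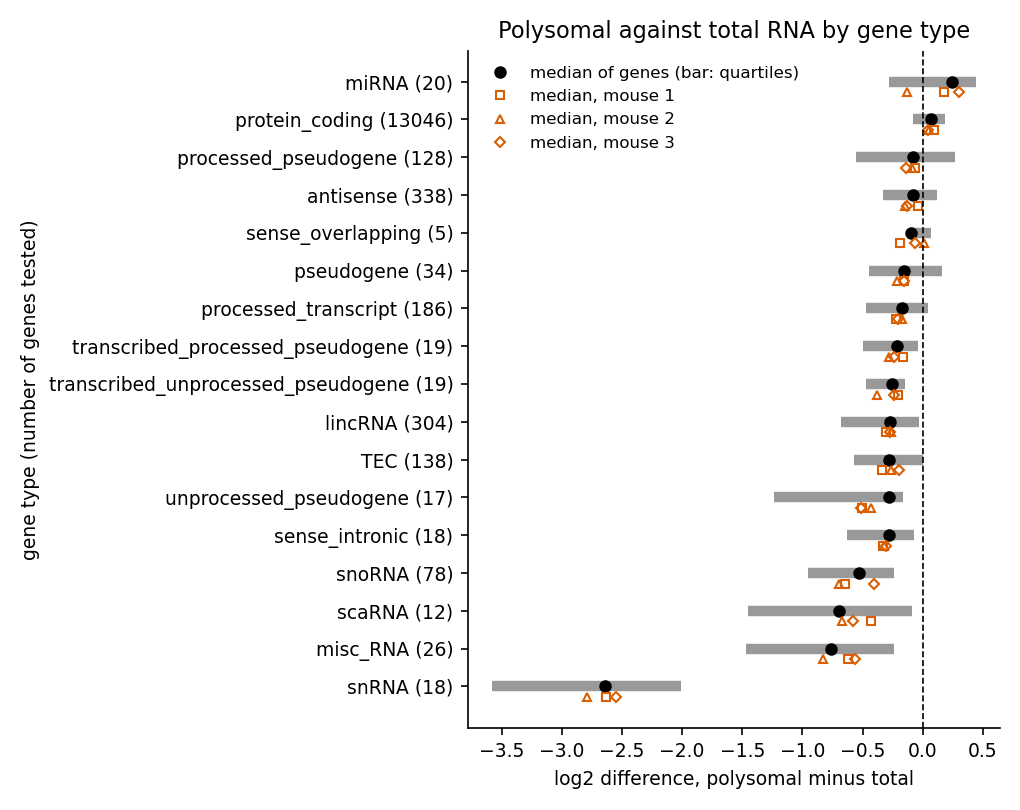
Median log2 difference, polysomal minus total, of each gene type with at least 5 genes tested (black points, with bars from the lower to the upper quartile of genes), and the same median in each of the 3 mice (open symbols). The snRNA genes lie furthest to the left at -2.64, and protein-coding genes lie at 0.07.

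The RNA parts of ribonucleases were among the genes with the largest differences. Rpph1, the RNA subunit of RNase P, which trims the 5′ ends of tRNA precursors, was measured at 2579, 1479 and 1544 FPKM in polysomal RNA and at 62500, 53129 and 48012 FPKM in total RNA. The lowest total value was thus many times the highest polysomal value, and the log2 difference was -4.91 (SE 0.17, adjusted p = 0.00047). Rprl3, listed as a ribozyme related to RNase P, had the lowest difference of all genes tested at -5.25 (SE 0.37, adjusted p = 0.0019), and Rmrp, the RNA of RNase MRP, stood at -4.09 (SE 0.22, adjusted p = 0.00092). Rny1, a Y RNA bound by the Ro protein, had polysomal values of 1255, 987 and 1037 FPKM against 26237, 19357 and 15614 FPKM in total RNA, a log2 difference of -4.20 (SE 0.14, adjusted p = 0.00046). Vaultrc5, a vault RNA, stood at -4.54, and the minor spliceosome RNAs Rnu12 and Rnu11 at -2.46 and -1.93. These 6 listed small RNAs (without Rprl3) were all lower, beside 6.74% of all genes. The list holds 24, and the other 18 were not tested because of a value of 0 or a mean under 1 FPKM. Of these 18, Rn7sk, Rn7s1 and Rn7s2 were listed at 0 in all 3 total libraries and above 0 in polysomal RNA. With genes listed at 0 kept, 3 of 12 were thus called higher and 6 lower, beside 213 higher and 678 lower of 14900 genes.

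Long noncoding RNAs listed as snoRNA hosts or by name were also low. Of 40 tested, 26 were lower and 0 higher, beside 6.74% and 4.44% of all genes, with a median of -1.03, a 2.04-fold lower level, and mouse medians of -1.02, -0.88 and -0.95. Malat1, an abundant transcript of nuclear speckles, was at 205, 242 and 189 FPKM in polysomal and at 1033, 1085 and 1019 FPKM in total RNA. The fractions did not overlap, and the log2 difference was -2.31 (SE 0.08, adjusted p = 0.00046). H19, an imprinted transcript of growing tissues, had the lowest value of the list at -3.07 (SE 0.18, adjusted p = 0.0012). Annotated small RNA genes share an exon with Malat1 and with H19, and their part in these values was not tested. The snoRNA host genes Snhg6 (-2.31), Snhg8 (-2.25) and Gas5 (-2.08) were all lower, as were Rian (-1.95) and Neat1 (-1.90). Not every long noncoding RNA was low. Pantr1 stood at 0.01 with adjusted p = 0.96. Peg13, an imprinted transcript, had 55.4, 53.9 and 57.1 FPKM in polysomal against 47.3, 48.4 and 52.5 FPKM in total RNA, a difference of 0.17 that did not pass the threshold (adjusted p = 0.11). Dlx1as, antisense to a homeobox gene of interneurons, had the highest difference of the list at 0.43 (adjusted p = 0.052). Without mouse 1, 14 of the 40 were lower.

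Among the mRNA lists, that of the ribosomal proteins held the most genes lower in polysomal RNA. All 82 cytosolic ribosomal protein genes on the list were tested, and 79 were lower and 0 higher, beside 6.74% of all genes lower. Their median log2 difference was -0.82, a 1.77-fold lower level, and it was -0.81, -0.82 and -0.87 in the 3 mice. Without 1 mouse, 53 to 68 were lower. Genes within the list still differed. Rps2, a protein of the small subunit near the mRNA entry channel, was at 89.6, 81.5 and 82.4 FPKM in polysomal and at 356, 324 and 363 FPKM in total RNA, the lowest of the list at -2.04 (SE 0.06, adjusted p = 0.00041), and an annotated snoRNA shares an exon with it. It was followed by Rps12 (-1.86), Rpl41 (-1.77), Rplp0 (-1.73) and Rps20 (-1.65), of which Rps12 and Rps20 also share an exon with small RNA genes. At the other end stood 3 genes that were not called. Rpl36al, a paralog of a large subunit gene, had 207, 172 and 190 FPKM in polysomal and 191, 178 and 182 FPKM in total RNA, a difference of 0.04 with overlapping fractions. Rps27l, an inducible paralog of Rps27, stood at -0.14, while Rps27 itself stood at -1.40. Rpl27 stood at -0.22. Reads of these genes can be split between the gene and its many processed pseudogenes, so single values are uncertain. Of 8 pseudogenes with ribosomal protein names that were tested, 4 were lower, with a median of -0.62.

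Ribosomal protein mRNAs are known for a 5′ terminal oligopyrimidine (TOP) tract, a C at the first base followed by pyrimidines, through which their entry into polysomes is regulated. The first 30 bases of annotated transcripts are shown for 3 genes with low polysomal levels, because their starts hold such a run. Capitals mark the run of C and T from the first base, and the sequences come from GENCODE M21 (GRCm38), read along the transcript.
Rps2: CTTCTTCTTCTTCgggagaacacgtgagtc
Pabpc1: CCCCTTCTCCCCggcggttagtgctgagag
Eif3f: CTCTTTCTCggcaagatggcttctccggcc
The genes span chr17:24718116-24721929 (Rps2, plus strand), chr15:36595661-36609668 (Pabpc1, minus strand) and chr7:108934417-108942951 (Eif3f, plus strand). A run of at least 5 bases from a C at base 1 was found in a coding transcript of 23 of 82 ribosomal protein genes (28.05%) and of 775 of 12950 protein-coding genes (5.98%). The ribosomal protein genes with and without the run had medians of -0.83 and -0.82. Annotated first bases are often not the true start, so a missing run says only that these letters are not at the annotated start.

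**Figure D3:**
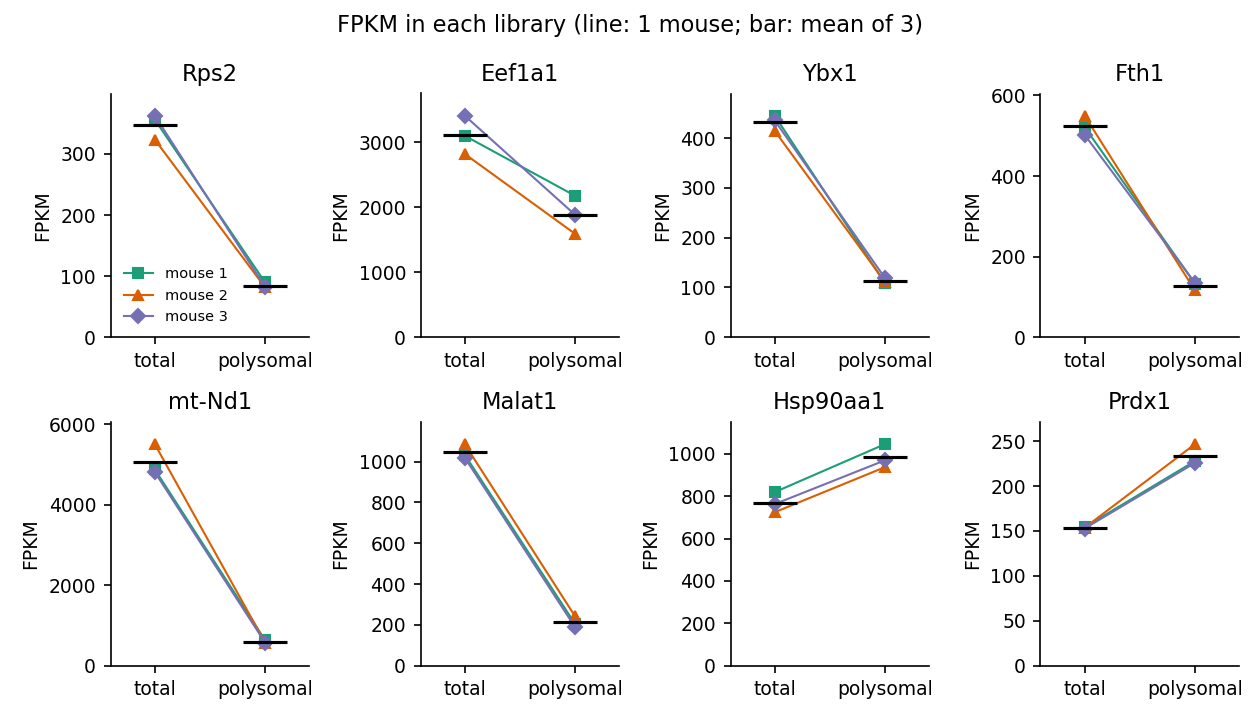
FPKM (vertical axes, from 0) of 8 genes in the total and polysomal library of each of the 3 control mice of day 7, with the mean of 3 as a black bar. Lines fall in every mouse for Rps2, Eef1a1, Ybx1, Fth1, mt-Nd1 and Malat1, and rise in every mouse for Hsp90aa1 and Prdx1.

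Elongation and termination factors had a median of 0.02, with 4 of 11 lower and 0 higher, beside 6.74% of all genes lower, and 2 to 3 were lower without 1 mouse. The lower ones were the subunits of the tRNA-delivering complex Eef1b2 (-0.94), Eef1g (-0.75) and Eef1a1 (-0.73), and the translocase Eef2 (-0.53). A small RNA gene shares an exon with Eef1b2. Eef1a1 was at 2178, 1592 and 1885 FPKM in polysomal and at 3102, 2822 and 3411 FPKM in total RNA, with no overlap (SE 0.12, adjusted p = 0.025). Eef1a2, its neuronal and muscle paralog, had 166, 147 and 132 against 150, 152 and 136 FPKM, an overlap of the fractions and a difference of 0.02 (adjusted p = 0.85). Of 40 initiation factors and their regulators, 5 were lower (12.5%) and 3 higher (7.5%), beside 6.74% and 4.44% of all genes, with a median of 0.11. Without 1 mouse, 2 to 3 were lower and 0 higher. Eif3f, a subunit of the eIF3 scaffold, was lowest at -0.95 (SE 0.06, adjusted p = 0.0013). Eif4ebp2, the main brain inhibitor of the cap-binding protein, stood at -0.87 (SE 0.07, adjusted p = 0.0034). Eif3h, Eif3e and Eif4b were lower by smaller amounts, from -0.45 to -0.33. Eif4a3, an RNA helicase of the exon junction complex, was the highest at 0.34 (SE 0.06, adjusted p = 0.031), and Eif2b1 and Eif3c were higher as well.

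Other mRNAs described as TOP mRNAs varied as widely. Of 14 genes, 4 were lower and 1 higher, beside 6.74% and 4.44% of all genes, with a median of 0.07. Without any 1 mouse 4 were lower and 0 higher. Ybx1, an abundant RNA-binding protein of free mRNA particles, was at 108, 111 and 119 FPKM in polysomal and at 445, 414 and 435 FPKM in total RNA, a log2 difference of -1.94 (SE 0.06, adjusted p = 0.00046). Pabpc1, the cytoplasmic poly(A)-binding protein, stood at -1.58 and Tpt1, a growth-related protein, at -1.29. Gnb2l1, which encodes the ribosomal scaffold RACK1, stood at -0.86 and shares an exon with snoRNA genes. By contrast Npm1 (0.05), Hsp90ab1 (0.09) and Vim (0.14) showed differences that did not pass the threshold, and Slc25a5, a mitochondrial ADP/ATP carrier, was higher at 0.30 (adjusted p = 0.043).

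Iron storage mRNAs were among the lowest coding genes. Ftl1, the ferritin light chain, was at 132, 102 and 132 FPKM in polysomal and at 518, 485 and 583 FPKM in total RNA, a log2 difference of -2.12 (SE 0.08, adjusted p = 0.00048). Fth1, the heavy chain, had 133, 116 and 135 against 522, 550 and 502 FPKM, a difference of -2.04 (SE 0.09, adjusted p = 0.00058). In both genes every total value was more than 3 times every polysomal value. Alas2, the haem synthesis enzyme of red cells, stood at -1.31 and Slc40a1, the iron exporter ferroportin, at -0.67, and both passed the threshold. The other 7 of 11 listed iron genes did not pass, and 6.74% of all genes were lower. Among them were Epas1 (-0.33), a hypoxia-inducible factor, and the transferrin receptor Tfrc (-0.14). The median of the list was -0.16.

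Ferritin mRNAs are known to carry an iron-responsive element, a hairpin in the 5′ untranslated region with the loop letters CAGTG (in DNA letters), which iron regulatory proteins bind to hold the mRNA out of polysomes. Windows around CAGTG in an annotated 5′ untranslated region are shown for 5 iron genes in which that element is known, with CAGTG in capitals. In all, 8 of the 11 iron genes held these letters.
Ftl1: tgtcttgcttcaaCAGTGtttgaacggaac
Fth1: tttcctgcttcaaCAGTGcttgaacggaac
Alas2: tttggttcgtcctCAGTGcagggcaacagg
Slc40a1: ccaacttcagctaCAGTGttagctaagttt
Epas1: gtacaatcctcggCAGTGtcctgagactgt
The genes span chr7:45457944-45459884 (Ftl1, minus strand), chr19:9980598-9985098 (Fth1, plus strand), chrX:150547375-150570638 (Alas2, plus strand), chr1:45908068-45926523 (Slc40a1, minus strand) and chr17:86753700-86833410 (Epas1, plus strand), in GRCm38. The 5 letters alone are common. On the transcript strand they occur in 3112 of 12714 5′ untranslated regions (24.5%), whose genes had a median of 0.06, against 0.07 for those without. The 13 letters that the Ftl1 and Fth1 windows share in a row occur in these 2 genes only among the 12714.

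Mitochondrial mRNAs, which are translated on ribosomes inside the organelle, were low in polysomal RNA. Of 13 genes, 9 were tested and all 9 were lower, beside 6.74% of all genes, with a median of -2.29 and mouse medians of -1.78, -2.46 and -2.28. mt-Nd1, a subunit of complex I, was at 633, 575 and 574 FPKM in polysomal and at 4880, 5509 and 4815 FPKM in total RNA, a difference of -3.09 (SE 0.10, adjusted p = 0.00046). mt-Cytb, of complex III, was less far apart at -1.74, and mt-Nd5 at -1.45. The other 4 could not be compared. mt-Co1 was listed at 3116, 3267 and 2888 FPKM in polysomal RNA and at 0 in all 3 total libraries, and mt-Atp8 at 1950, 2333 and 3289 FPKM against 0. mt-Atp6 and mt-Co3 had means under 1 FPKM. Total RNA contains the polysomal RNA, so these zeros cannot be read as absence, and whether they are failed estimates was not tested. They give no direction, and the group is described by 9 of its 13 genes.

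The nuclear genes for mitochondrial proteins did not share this. Of 90 nuclear respiratory chain subunits, 11 were higher and 1 lower, beside 4.44% of all genes higher, with a median of 0.17 and mouse medians of 0.17, 0.18 and 0.17. The count higher was 0 to 2 without 1 mouse, 0 for eBayes without a trend and 25 after quantile normalization. The list is abundant, with a median of 190 FPKM in polysomal RNA. In the group of coding genes with the highest mean FPKM (37.08 or more), 13.8% were higher and the median was 0.15. The list is thus close to coding genes of high abundance. Ndufs5, of complex I, had the highest difference of the list at 0.47 (SE 0.08, adjusted p = 0.029). Cox7a2l, a factor of supercomplex assembly, was the 1 lower gene at -0.77, with 131, 116 and 125 FPKM in polysomal and 221, 200 and 213 FPKM in total RNA. Mitochondrial ribosomal proteins had a median of 0.15 with 5 of 77 higher (6.49%) and 4 lower (5.19%), near the 4.44% and 6.74% of all genes. Mrpl19 stood at 0.54 and Mrpl52 at -0.56. Without 1 mouse, 0 to 1 of the 77 were called in each direction.

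**Figure D4:**
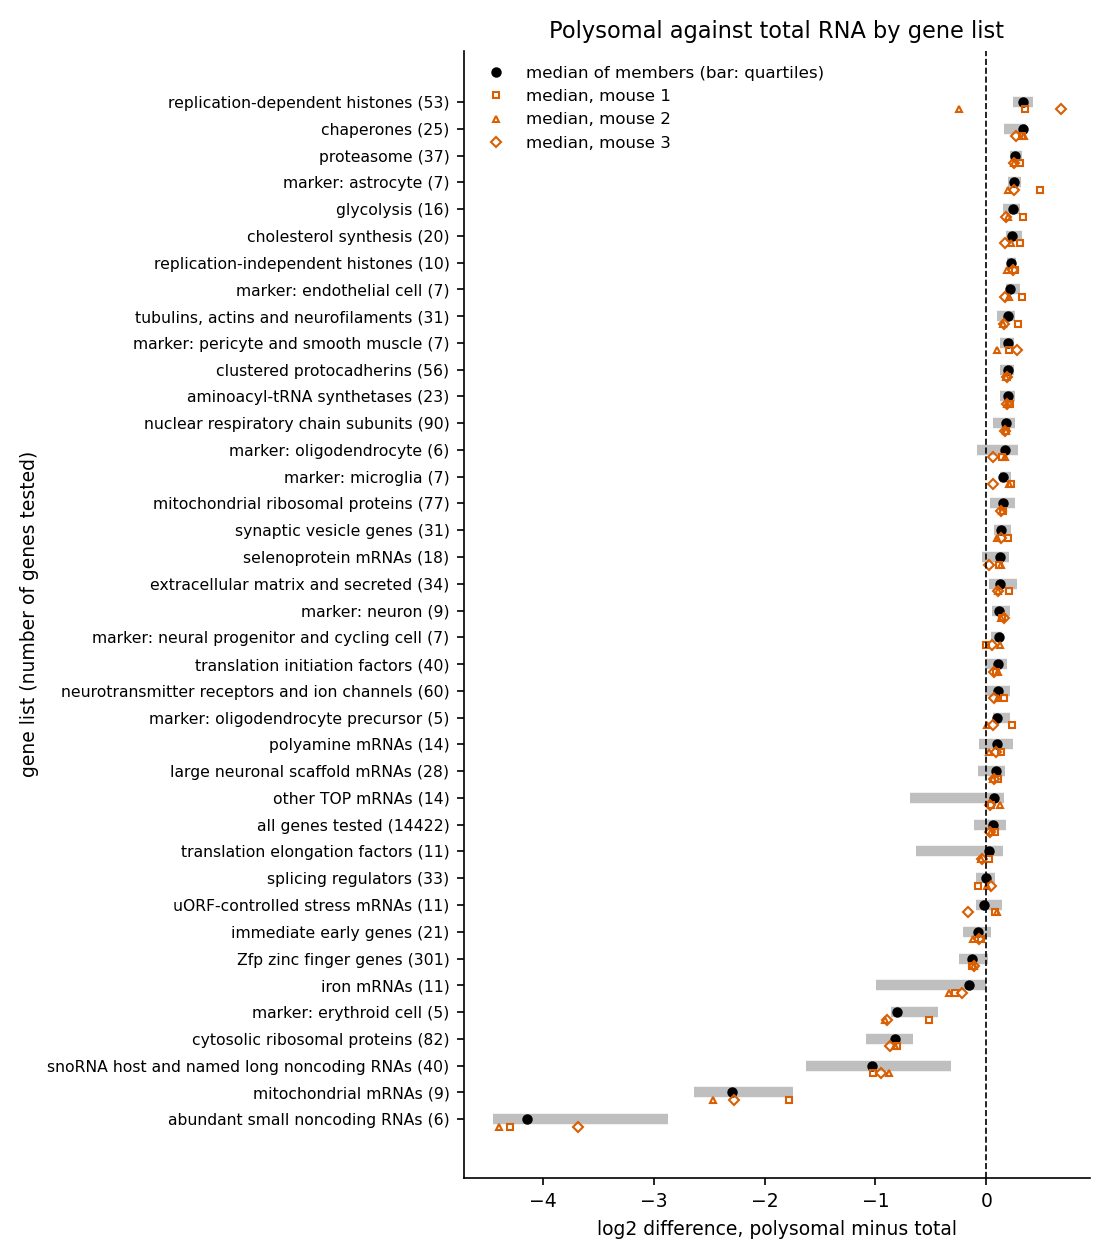
Median log2 difference, polysomal minus total, of each gene list with at least 5 genes tested (black points, with bars from the lower to the upper quartile of members) and the same median in each of the 3 mice (open symbols). Ribosomal protein mRNAs lie at -0.82, mitochondrial mRNAs at -2.29 and small noncoding RNAs at -4.14, while chaperones lie at 0.33.

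Chaperone and proteasome mRNAs were among the lists with small differences toward polysomal RNA. Of 25 chaperone genes, 15 were higher and 1 lower, beside 4.44% of all genes higher, with a median of 0.33, a 1.25-fold higher level. Hsp90aa1, the most abundant, was at 1046, 937 and 969 FPKM in polysomal and at 819, 724 and 763 FPKM in total RNA, a difference of 0.36 (SE 0.07, adjusted p = 0.042). Hspa4, an exchange factor of Hsp70 chaperones, stood at 0.43, the disulfide isomerase Pdia3 at 0.44 and the co-chaperone Dnaja1 at 0.45. Cct6a, a chaperonin subunit, was the exception at -0.52 (SE 0.07, adjusted p = 0.015), and an annotated small RNA shares an exon with it. At day 5 Cct6a stood at 0.34, though the limma difference between days did not pass the threshold (adjusted p = 0.18). Without mouse 1 or without mouse 2, 0 chaperone genes were lower. Of 37 proteasome genes tested, 15 were higher and 0 lower, with a median of 0.26. Psma4 (0.41) of the core particle and Psmd12 (0.40) of the regulatory cap were examples. Psmd13 had the largest difference of the list, 1.64, but with polysomal values of 137, 776 and 438 FPKM and total values of 80.3, 97.4 and 196 FPKM it did not pass (adjusted p = 0.068). These 2 lists lost nearly all calls when any mouse was left out, with 0 to 1 gene called higher in each. The medians in the 3 mice still lay between 0.25 and 0.33. With all 3 mice kept, eBayes without a trend called 3 chaperone genes and 1 proteasome gene higher. After quantile normalization 10 chaperone and 3 proteasome genes were higher. Both lists are abundant, and in the main fit 13.8% of the coding genes with the highest mean FPKM (37.08 or more) were higher.

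Small positive medians also came from cholesterol synthesis (0.23, 3 of 20 higher), glycolysis (0.24, 3 of 16 higher), aminoacyl-tRNA synthetases (0.19, 4 of 23 higher) and tubulins, actins and neurofilaments (0.20, 6 of 31 higher), with 0 genes lower in each, beside 4.44% of all genes higher. Without 1 mouse these counts fell to 0 to 2 for cholesterol synthesis, 0 to 1 for glycolysis and for the synthetases, and 0 for the tubulin list. After quantile normalization they were 2 for cholesterol synthesis, 0 for glycolysis, 0 for the synthetases and 14 for the tubulin list. For eBayes without a trend each was 0. The glycolysis and tubulin lists are abundant, with medians of 159 and 237.5 FPKM in polysomal RNA. In the group of coding genes with the highest mean FPKM (37.08 or more), 13.8% were higher and the median was 0.15. Among the single genes, Stmn1, a microtubule regulator of growing neurons, was higher at 0.41, and Apoe, the main apolipoprotein of the brain, at 0.43. Gapdh was at 558, 375 and 418 FPKM in polysomal and at 459, 471 and 477 FPKM in total RNA, so the fractions overlapped, with a difference of -0.08 (adjusted p = 0.71).

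Single genes of mixed function had the largest differences among those called higher. Ptp4a1, a protein phosphatase of proliferating cells, was at 345, 363 and 246 FPKM in polysomal and at 201, 93.3 and 98.0 FPKM in total RNA, a difference of 1.36 (SE 0.22, adjusted p = 0.026). Ttc7 stood at 1.51 (SE 0.24, adjusted p = 0.026) and Ccdc120 at 1.15 (SE 0.23, adjusted p = 0.041). The miRNA genes AC122428.1 and AC122804.1 were higher as well, at 1.34 (SE 0.28, adjusted p = 0.046) and 0.78 (SE 0.11, adjusted p = 0.016). They lie on the opposite strand within the histone genes H2afx and H2afj, and reads of each pair cannot be told apart. At day 5, Ptp4a1 and Ttc7 went the other way, with -0.43 for Ptp4a1 and -1.52 for Ttc7, though the difference between days did not pass the threshold (adjusted p = 0.25 and 0.19). The next coding genes were the DNA polymerase subunit Pold3 (0.73), the acetoacetyl-CoA synthetase Aacs (0.72), the histone chaperone Anp32e (0.69) and the deacetylase Hdac8 (0.66). Hnrnpa2b1, an RNA-binding protein of mRNA transport, was at 151, 160 and 161 FPKM in polysomal and at 97.5, 96.6 and 114 FPKM in total RNA (0.62, SE 0.07, adjusted p = 0.0087). Prdx1, a peroxidase, was at 228, 247 and 226 against 154, 154 and 153 FPKM (0.60, SE 0.06, adjusted p = 0.0062). These genes were picked so that the lowest polysomal value lies above the highest total value. Gm7879 stood at 0.63, and Dctn3, a dynactin subunit, Nifk, Ppp1r7 and the chromatin protein Hmgb1 from 0.60 to 0.58. Anp32e and Hnrnpa2b1 were near even at day 5, at 0.01 and 0.05. Their limma differences between days did not pass the threshold (adjusted p = 0.32 and 0.28). The other coding genes named from Pold3 on stood between 0.21 and 0.915 at day 5.

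Of the 15 coding genes with the largest differences toward total RNA, 4 were mitochondrial, and Ftl1 and Rps2 were also among them. Several of the others were at low FPKM in polysomal RNA. Unc13d, a priming factor of granule release, was at 1.87, 1.27 and 1.36 FPKM in polysomal and at 27.4, 26.3 and 25.7 FPKM in total RNA, a difference of -4.07 (SE 0.11, adjusted p = 0.00028). Alpk2, a kinase, stood at -3.99, Sag, the arrestin of photoreceptors, at -2.64 and Nmrk1, a nicotinamide riboside kinase, at -2.05. Cdr1, whose locus also gives rise to an abundant circular RNA, stood at -3.05, with 1.46, 2.64 and 1.43 against 12.4, 28.3 and 10.5 FPKM. Pola1, a catalytic subunit of DNA polymerase alpha, stood at -2.29. Gm10800 and Gm10801 are predicted genes at -4.23 and -3.95. Ccdc107, at -3.77, shares exonic sequence with Rmrp on the opposite strand, and since the default settings of the counting do not use strand, reads of the 2 genes cannot be told apart.

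Small RNA genes lie inside other coding genes as well. The 117 coding genes that share an exon with an annotated small RNA gene on either strand had a median of -0.09 with 30.8% lower, against 0.07 and 5.05% for those without an overlapping small RNA, and 0.09 and 3.87% for those with one in an intron. The 117 include ribosomal protein genes that host snoRNAs. Without the members that share an exon, 58 ribosomal protein genes remained with a median of -0.77. The part of small RNA reads in these values was not tested.

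Few neuronal mRNAs were called. Neurotransmitter receptors and ion channels had a median of 0.10, with 5 of 60 higher (8.33%, beside 4.44% of all genes) and 0 lower, and Scn8a, a sodium channel of the axon initial segment, was highest at 0.54 (SE 0.11, adjusted p = 0.042). Without 1 mouse 0 of the 60 were called. Synaptic vesicle genes had a median of 0.14 with 1 of 31 higher (Nsf, 0.32) and 1 lower (Rims2, -0.27). Large scaffold mRNAs, several of which are transported into dendrites, had a median of 0.09 and 0 of 28 called. The clustered protocadherins had a median of 0.19 and 0 of 56 called. Stress mRNAs held back by upstream reading frames had a median of -0.02 with 0 of 11 called, Ddit3 being lowest at -0.33 (adjusted p = 0.062) and Atf4 at -0.22 (adjusted p = 0.057). Zinc finger genes named Zfp lay on the other side of 0, with a median of -0.13 over 301 genes, mouse medians of -0.13, -0.11 and -0.11, 23 lower and 0 higher. The 23 are 7.64% of the list, near the 6.74% of all genes, and without 1 mouse 1 to 8 were lower. Zfp771 stood at -1.14 and Zfp57, an imprinting factor, at -0.67. Splicing regulators stood at a median of -0.0047 with 3 of 33 lower (9.09%, beside 6.74% of all genes), Clk1 the lowest at -0.48. Immediate early genes had a median of -0.07 with 1 of 21 lower (Btg2, -0.59). Without 1 mouse, 0 to 1 of the splicing regulators and 0 of the immediate early and synaptic vesicle genes were called.

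Sepw1, a selenoprotein, was at 254, 216 and 210 FPKM in polysomal and at 847, 716 and 809 FPKM in total RNA, a difference of -1.80 (SE 0.08, adjusted p = 0.00058), while the median of 18 selenoprotein mRNAs was 0.12. Amd1, which makes the aminopropyl donor for polyamines and has a short upstream reading frame, was at 10.4, 10.5 and 11.1 against 20.5, 21.5 and 19.2 FPKM, a difference of -0.93 (SE 0.07, adjusted p = 0.0032), beside a list median of 0.09. Azin1, an antizyme inhibitor, was the higher member at 0.32. Col1a1, the fibrillar collagen chain, stood at -0.83 (SE 0.06, adjusted p = 0.0017), and Col1a2 at -0.35, in a list of matrix and secreted genes with a median of 0.12, of which 5 of 34 were higher (14.7%, beside 4.44% of all genes) and 2 lower. Without 1 mouse, 0 to 1 of them were higher and 1 lower.

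Replication-dependent histone mRNAs, which lack a poly(A) tail, had the widest spread among mice of all lists (SD of the mouse medians 0.47, n = 3). Their median was 0.33 over 53 of 68 genes, with 9 higher and 0 lower beside 4.44% of all genes higher, but the mouse medians were 0.35, -0.25 and 0.67, so mouse 2 had the opposite sign. Hist1h2al, with the largest difference of the list, was at 27.5, 19.1 and 27.1 FPKM in polysomal and at 11.4, 25.1 and 8.92 FPKM in total RNA, and did not pass (0.82, SE 0.38, adjusted p = 0.20). Without the replicate block 0 of the 53 were called, and 0, 10 and 3 were higher without mouse 1, 2 and 3. The 10 replication-independent histone genes had a median of 0.23 with mouse medians of 0.26, 0.19 and 0.24, and 2 were higher, with 0 without any 1 mouse.

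The brain label was checked against markers of its cell types. Of 9 neuron markers all were tested, with a summed level of 3225 to 3402 FPKM in polysomal and 2886 to 3160 FPKM in total RNA. Markers of astrocytes, oligodendrocytes and their precursors, microglia, endothelial cells, mural cells and choroid plexus were detected too, with medians between 0.09 and 0.31 and 0 genes lower. For the level of a marker in these bulk samples, fewer cells of a type and less RNA per cell cannot be told apart. The 7 markers of neural progenitors and cycling cells had a median of 0.11, with 6 of them above 0. Dcx, a microtubule protein of young neurons and the most abundant of them, was higher at 0.26 (SE 0.06, adjusted p = 0.049), Hes5, a Notch target, was lower at -0.85 (SE 0.14, adjusted p = 0.026), and the other 5 did not pass. Erythroid markers were lower. Of 6 markers 5 were tested and all 5 were lower, beside 6.74% of all genes, with a median of -0.81. Without any 1 mouse or without the replicate block 3 were lower, and 2 after quantile normalization. The markers had a summed level of 2369, 2319 and 2542 FPKM in polysomal and 3620, 3680 and 4232 FPKM in total RNA. Hba-a1, the most abundant, stood at -0.86 and Hbb-bs at -0.44. The part of blood in the other differences was not tested.

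Across 12933 nuclear coding genes with an annotated transcript, the rank correlation of the difference with transcript features was weak. When genes were ranked into 5 groups of like size, the median went from 0.09 in the group with the shortest coding sequence to 0.06 in the group with the longest (Spearman's rho across genes -0.05), while the share lower went from 9.13% to 2.63% and the share higher from 6.98% to 2.90%, and for the length of the 5′ and 3′ untranslated regions rho was -0.03 and -0.01. In the group richest in G and C the median was 0.03, against 0.09 in the poorest (rho -0.10), with 1.62% against 6.61% higher and 6.96% against 4.37% lower. Transcripts with no ATG in the 5′ untranslated region had a median of 0.09 and those with at least 4 had 0.04. The clearest relation was with abundance: the median was -0.01 in the group with the lowest mean FPKM and 0.15 in the group with the highest (rho 0.26), while the share higher went from 0.425% to 13.8% and the share lower from 3.71% to 8.31%. Genes are not independent replicates, and precision differs with abundance, so these values are descriptions.

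The same contrast at day 5 rests on 4 other libraries, 2 mice with both fractions. Across the 14325 genes measured in both, the differences at day 7 and day 5 correlated with Pearson's r of 0.727 (Spearman's rho 0.641) across genes. Of the genes lower at day 7, 937 of 963 were below 0 at day 5, and of the genes higher at day 7, 593 of 640 were above 0, where 54.4% of all genes were above 0. The ribosomal protein median was -0.76 and -0.74 in the 2 mice of day 5, and the mitochondrial mRNA median -2.84 and -2.45. The snoRNA median was -1.74 and 0.08 in these mice, so its sign differed between them. The difference between days, tested as the interaction of day and fraction with limma, was past the threshold for 0 of 14325 genes (0%), while 1979 had an unadjusted p under 0.05 and the fit without the mouse as a block called 4 genes. Replication-dependent histones had medians of 0.84 and 1.02 at day 5, above all 3 mice of day 7, and 17 of 53 had an unadjusted p under 0.05 for the difference between days. In the SMA littermates of day 7 the ribosomal protein median was -0.89, -0.88 and -1.02 in 3 mice, and the mitochondrial median -1.89, -2.22 and -2.04. The difference between genotypes was not tested here.

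**Figure D5:**
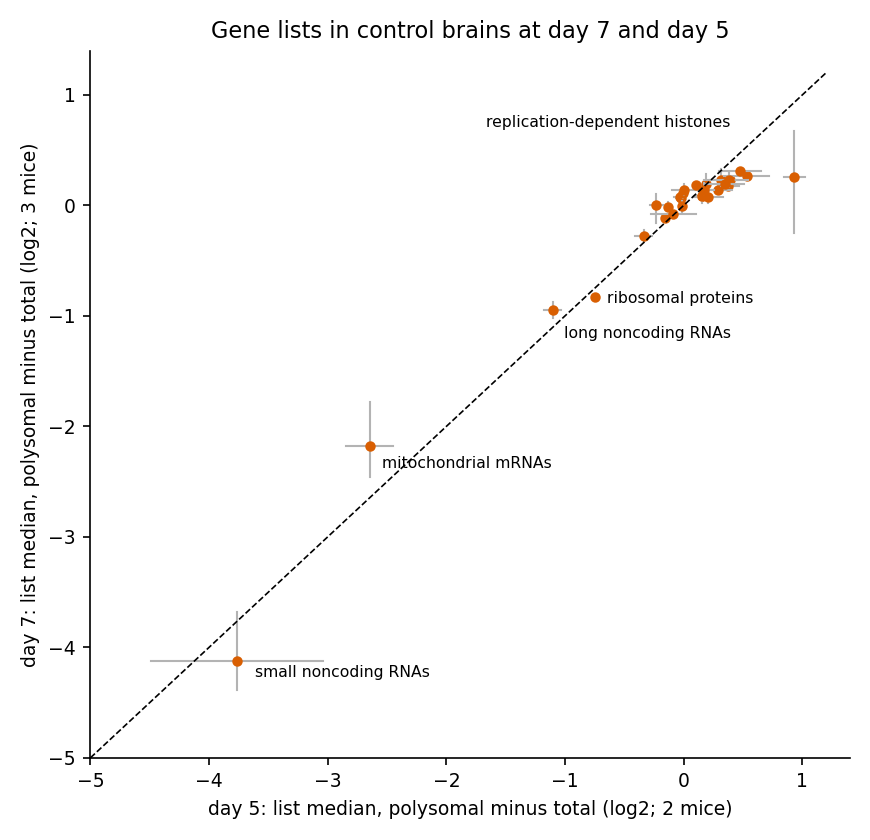
Median log2 difference, polysomal minus total, of the gene lists with at least 5 genes tested in control brains at day 7 (vertical, mean of 3 mice) and day 5 (horizontal, mean of 2 mice). Grey lines run from the lowest to the highest mouse, and the dashed line marks equal values. The ribosomal protein list lies near the line, and the replication-dependent histones lie right of it with a wide range at day 7.

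Smn1, the mouse gene that is inactivated in the SMA animals and heterozygous in these controls, was at 13.3, 11.9 and 12.5 FPKM in polysomal and at 13.6, 14.1 and 16.7 FPKM in total RNA. All polysomal values were below all total values, but the difference of -0.23 did not pass (SE 0.09, adjusted p = 0.16). Actb and Ppia, which are widely used as reference genes, had differences above 0 that did not pass. Actb was at 3126, 3112 and 3596 against 2693, 2789 and 2730 FPKM (0.26, adjusted p = 0.17), and Ppia at 3814, 3060 and 3420 against 2619, 2446 and 2816 FPKM (0.38, adjusted p = 0.083).

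In all, 478 genes that averaged 1 FPKM or more were left out because at least 1 library was listed at 0, and 13 of them are protein-coding. In 7 the 3 total libraries were at 0 and the 3 polysomal libraries above it, and in 5 it was the reverse. The first 7 include Celf2, an RNA-binding protein widely used in neurons, at 158, 151 and 138 FPKM in polysomal RNA and listed at 0 in total RNA. The 5 include the ribosomal RNA entry Rn18s-rs5, at 194, 152 and 116 FPKM in total RNA and listed at 0 in polysomal RNA. Total RNA contains the polysomal RNA, so a 0 in total RNA beside a polysomal signal cannot be read as absence. No fold is given for these 7 and 5 genes. The classes differ in the weight they carry in a library: small RNA genes held 39.2% to 44.7% of the summed FPKM in total RNA and 18.1% to 19.3% in polysomal RNA, while the summed FPKM of nuclear protein-coding genes was alike, from 455910 to 482477 in all 6 libraries.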

How the data were processed

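Cytoplasmic RNA of snap-frozen brains was sequenced from pooled gradient fractions with a stranded total RNA kit and 100 base reads. The authors aligned reads to GRCm38.p4 with TopHat2 2.0.14 and the Gencode M6 annotation and deposited FPKM values from Cufflinks 2.2.1, run with default settings, which do not use strand. FPKM values are in 2 decimals, whole reads could not be recovered, and the deposited table holds no read counts, so no counting intervals are given.

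All differences were fitted on log2(FPKM + 0.1) with limma 3.58.1 in R 4.3.3 (eBayes with a trend, replicate number as a block, Benjamini-Hochberg adjusted p under 0.05), and the day 7 against day 5 comparison as an interaction with the mouse as a block. The fits were tested on simulated data. The replicate numbers pair the libraries: deviations of same-numbered polysomal and total libraries from their fraction means correlated across genes at 0.28, 0.18 and 0.44, and each number correlated best with itself. With 3 libraries against 3 an exact permutation test of a single value cannot go below 0.1 and was not used.

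Genes named were up to 15 protein-coding genes (mean of at least 5 FPKM) and 6 of other types per direction with the largest differences past the threshold and no overlap, the highest, lowest and most abundant member of each list, and Actb, Ppia, Gapdh and Smn1. Further genes named as examples were chosen after their values were seen. The members, the gene lists and the tests were chosen with earlier results of these data known. Gene coordinates and transcript features come from GENCODE M21 on GRCm38, which matched 99.4% of the tested genes by identifier. Medians of lists and types are descriptions with no test. A few genes and sequences that meet these rules are not reported here.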

Additional observations from a re-analysis of the deposited data

Results flagged for a closer look

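Some transcripts outside the comparison carried strong signal in polysomal RNA while their 3 total libraries were listed at 0. The mitochondrial ribosomal RNA mt-Rnr1 had a mean of 12380 FPKM in the 3 polysomal libraries (11210, 14662 and 11267), and Rn7sk, a nuclear RNA that restrains transcription elongation, had 12128 FPKM (13652, 11392 and 11340). mt-Co1, a subunit of complex IV, had a mean of 3090 FPKM and mt-Atp8, of the ATP synthase, 2524 FPKM. The 9 mitochondrial mRNAs that were tested were all lower in polysomal than in total RNA. Total RNA contains the polysomal RNA, so these zeros cannot be read as absence from total RNA. Whether the zeros are failed estimates was not tested, and no fold is given.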

How the results depend on the processing

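Medians of the ribosomal protein, mitochondrial mRNA, lincRNA and snRNA genes stayed below 0 under each alternative, while the counts of calls depended on the fit. With no replicate block, 375 genes were higher and 730 lower, in place of 640 and 972, and the day 7 against day 5 comparison called 4 genes in place of 0. Without 1 mouse, 21 to 104 genes were higher and 346 to 587 lower. Genes higher numbered 213 with genes listed at 0 kept, 33 with no filter (383 lower), 373 after quantile normalization and 97 for eBayes without a trend. With a mean of at least 5 FPKM, 874 were higher and 786 lower, which moved the higher share of the calls from 39.7% to 52.7%. Scaling to equal medians, quantiles or coding sums moved the median of all genes by at most 0.01. The libraries already had medians of 11.2 to 11.5 FPKM over the tested genes and like coding sums. Little shift was therefore possible, and this says little about the choice of scaling.

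The ribosomal protein median of -0.82 was -0.62 after quantile normalization and -0.77 without genes that share an exon with a small RNA gene, a choice made after seeing the data, and -0.85 to -0.81 without 1 mouse. The mitochondrial mRNA median of -2.29 was -1.76 with log2(FPKM + 1), -1.74 with no filter, where 3 of 13 were called higher and 6 lower, and -2.69 to -2.12 without 1 mouse. The lincRNA median of -0.27 was -0.20 with log2(FPKM + 1), -0.19 with a mean of at least 5 FPKM, -0.18 with no filter, -0.19 after quantile normalization and -0.29 to -0.25 without 1 mouse. The snRNA median of -2.64 was -2.81 with a mean of at least 5 FPKM, -2.35 with genes listed at 0 kept (111 genes), -2.07 with no filter and -2.41 after quantile normalization. Gene types with small medians reversed: antisense was 0.0013 with a mean of at least 5 FPKM, processed pseudogenes 0.0141 after quantile normalization, and miRNA -0.14 with genes listed at 0 kept or no filter and from -0.0768 to 0.2126 without 1 mouse. The causes were not tested.

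The reads behind each value are not in the table, and 3 mice limit calls to differences that repeat closely.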
